A study of Mus musculus with 12 samples.

Results

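Fibroblast growth factor (FGF) signalling was followed through 39 of the 22180 genes measured: 22 FGF genes, 7 receptor and carrier genes, and 10 feedback and target genes. The members were chosen by symbol alone, as all genes named Fgf with a number, Fgfr, Fgfrl, Fgfbp, Spry or Spred, with Dusp6, Etv4 and Etv5, each read from its brightest probe set. RNA was profiled on 12 Affymetrix arrays, 3 in each of 4 groups: leukemia cells from the spleen of a NOTCH1 mouse model, GFP+ colonies labelled partially reprogrammed, GFP- colonies labelled reprogrammed, and established iPS cells (induced pluripotent stem cells). All 4 groups carry the genotype R26rtTA;Col1a12lox-4F2A, a doxycycline-responsive transactivator with an inducible cassette of the 4 reprogramming factors, and the colonies and iPS cells were derived from the leukemia cells. The growth protocol names mES medium for the iPS cells. The labels give no age and do not say what drives GFP. All leukemia titles carry 1 leukemia number. The arrays of a group are called biological replicates without mention of animals or cultures, and every p-value here reflects array-to-array spread alone, which may be technical.

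FGF ligands bind receptor tyrosine kinases together with heparan sulfate, and the receptors signal through Ras to the kinase ERK. ERK activity switches on transcription factor genes of the ETS class, such as Etv4 and Etv5, and genes whose products damp the pathway, such as the Sprouty (Spry), Spred and Dusp6 genes. Pluripotent mouse cells make Fgf4 themselves, and its signal through ERK is known to prepare them to leave the naive state.

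Levels are log2 values, 1 per probe set and array. Differences are log2 ± standard error from limma, n = 3 arrays per group with all arrays in the fit, and a gene is called at an adjusted p under 0.05 over all 22180 genes. The T lineage markers (5 measured of 8 listed) averaged 11.61 to 11.62 on the leukemia arrays and 5.24 to 7.34 on all others. The 8 pluripotency markers averaged 9.47 to 9.54 on the iPS arrays and 5.26 to 5.62 on the leukemia arrays, although 1 of them, Dppa5a, read only 5.93 to 6.25 against 5.60 to 5.82. Among colonies they averaged 8.29, 9.49 and 7.26 on GFP+ replicates 1, 2 and 3 and 6.57, 9.29 and 9.54 on GFP- replicates 1, 2 and 3. By this mean GFP- replicate 1 went against its label as reprogrammed. GFP+ replicate 2, labelled partially reprogrammed, lay within the iPS range. On GFP- replicate 1 the markers split. Tdgf1 (9.75) and Tfcp2l1 (8.72) were far above leukemia, and the others, such as Nanog (5.07), lay within or close to the leukemia range. An alternative fit leaves out GFP- replicate 1 and GFP+ replicate 3, the 2 colony arrays with the lowest pluripotency means. It has 2 arrays in each colony group and is given beside the results whose call it changes. The 2 arrays were picked after these means were seen. Fgf4, Fgf15, Fgf5 and Spry2 were lowest among colonies on these 2 arrays. Leaving them out raises the colony means of such genes, so calls in that fit are no independent support. The 7 measured markers of stratified epithelium averaged 10.08 to 10.66 on the 3 GFP+ arrays and GFP- replicate 1, 8.10 and 6.43 on GFP- replicates 2 and 3, 7.0 to 7.08 on iPS arrays and 5.82 to 5.95 on leukemia arrays. The 8 macrophage markers averaged 9.31 on GFP+ replicate 3 and at most 7.93 on any other array. In such bulk RNA, fewer cells of a type and less RNA per cell cannot be told apart.

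Every member called against the leukemia with all 12 arrays in the fit was higher outside it. In GFP+ colonies 9 of 39 rose and 0 fell, where 21.9% of all genes were called, 9.60% higher and 12.3% lower. In GFP- colonies 11 rose and 0 fell, where 21.0% of all genes were called, 9.02% higher and the rest, 2654 genes, lower. In iPS cells 12 rose and 0 fell, where 24.3% of all genes were called, 12.4% higher and 11.9% lower. The median difference of the 39 was 0.14, 0.28 and 0.37 in these comparisons, against -0.04, -0.01 and -0.03 over all genes. The 6 genes higher in all 3 were Fgfbp1, Fgfr1, Spry2, Spry4, Dusp6 and Etv5. These comparisons share the leukemia arrays and are not independent. After cyclic loess the shares of all genes that rose were 12.2%, 11.3% and 14.2%. The arrays did not overlap with those of the leukemia for 17, 12 and 22 of the 39 members, against 41.9%, 37.2% and 56.5% of all genes.

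The count of calls depended on the estimate of the spread, and the colonies varied more than the end states. The median SD of the 39 genes was 0.121 in leukemia, 0.266 in GFP+ colonies, 0.260 in GFP- colonies and 0.104 in iPS cells. Over all genes it was similar, at 0.105, 0.217, 0.245 and 0.1 in the same order. With only the 2 groups compared in the fit, 21 members were called between iPS cells and leukemia (20 higher and 1, Fgf14, lower, against 47.5% of all genes), 6 between GFP- colonies and leukemia (against 14.9%), and 10 between GFP+ colonies and leukemia (against 22.7%). With array weights, which count variable arrays for less, 19, 17 and 21 were called in GFP+ colonies, GFP- colonies and iPS cells against leukemia, beside 36.9%, 39.1% and 47.5% of all genes. With GFP+ replicate 3 and GFP- replicate 1 left out, 15 rose and 1 fell in GFP+ colonies (32.6% of all genes called), 14 rose in GFP- colonies (32.9%) and 15 in iPS cells (36.4%). Without leukemia replicate 3 alone, 6 and 7 were called in the GFP+ and GFP- comparisons, and 7 in the former without GFP+ replicate 2 or leukemia replicate 1.

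Among the 22 FGF genes, Fgf4 had the largest difference from the leukemia. Its probe set 17485437 measured 7.41, 7.0 and 6.96 on the leukemia arrays, 8.94, 10.16 and 8.71 on the GFP+ arrays, 7.30, 10.19 and 10.68 on the GFP- arrays, and 10.51, 10.51 and 10.44 on the iPS arrays. GFP- replicate 1 stayed inside the leukemia range, 5 of the 6 colony arrays lay above it, and the iPS arrays lay close together above all leukemia arrays. Fgf4 rose 10.3-fold in iPS cells (3.36 ± 0.72, adjusted p = 0.00609, limma) and 4.81-fold in GFP- colonies (2.27 ± 0.72, adjusted p = 0.0475). The latter call was lost without GFP- replicate 2 (1.86) or 3 (1.62) or any leukemia array (adjusted p up to 0.148), with only these 2 groups in the fit (adjusted p = 0.147), and with the replicate number as a block. In GFP+ colonies the difference of 2.14 ± 0.72 was not called (adjusted p = 0.0574), but it was with only those 2 groups in the fit (adjusted p = 0.00873). Without the 2 arrays named above it was 2.42 ± 0.31 in GFP+ and 3.31 ± 0.31 in GFP- colonies (adjusted p = 0.000196 and 2.34e-05).

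The promoter windows of the ligand gene, the carrier gene and 2 feedback genes that changed are shown here to give the sequence next to these measurements (RefSeq, GRCm38.p6, from 250 bases before to 50 after the annotated start, in the gene's own direction). The Fgf4 window is chr7:144861136-144861435 on the plus strand, the Fgfbp1 window chr5:43981750-43982049 on the minus strand, the Spry2 window chr14:105896770-105897069 on the minus strand and the Dusp6 window chr10:99262981-99263280 on the plus strand. Capitals mark matches on either strand to a GC box with the letters GGGCGG. Capitals likewise mark matches to the CCAAT box, or to a TATA box with the letters TATAAA.
Fgf4: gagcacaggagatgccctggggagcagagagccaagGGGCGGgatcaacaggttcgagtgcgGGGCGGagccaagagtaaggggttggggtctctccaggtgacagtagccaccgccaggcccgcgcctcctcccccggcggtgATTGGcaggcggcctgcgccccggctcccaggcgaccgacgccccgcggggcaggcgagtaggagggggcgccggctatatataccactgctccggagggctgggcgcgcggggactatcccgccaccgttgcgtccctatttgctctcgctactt
Fgfbp1: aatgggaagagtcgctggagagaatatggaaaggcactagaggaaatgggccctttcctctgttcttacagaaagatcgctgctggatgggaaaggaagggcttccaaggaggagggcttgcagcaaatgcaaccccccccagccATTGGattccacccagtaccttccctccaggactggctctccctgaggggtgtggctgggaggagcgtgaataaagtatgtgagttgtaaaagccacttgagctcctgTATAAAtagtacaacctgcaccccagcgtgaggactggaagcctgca
Spry2: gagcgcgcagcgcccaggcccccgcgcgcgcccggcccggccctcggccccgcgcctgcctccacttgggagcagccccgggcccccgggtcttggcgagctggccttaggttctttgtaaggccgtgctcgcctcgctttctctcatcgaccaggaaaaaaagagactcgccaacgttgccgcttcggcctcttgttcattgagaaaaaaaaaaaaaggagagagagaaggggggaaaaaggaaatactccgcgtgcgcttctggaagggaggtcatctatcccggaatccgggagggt
Dusp6: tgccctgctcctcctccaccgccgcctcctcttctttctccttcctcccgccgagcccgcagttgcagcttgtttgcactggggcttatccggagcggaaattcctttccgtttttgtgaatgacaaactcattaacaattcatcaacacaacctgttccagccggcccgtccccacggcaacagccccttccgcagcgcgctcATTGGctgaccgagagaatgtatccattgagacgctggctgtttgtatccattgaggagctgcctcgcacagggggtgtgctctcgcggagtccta
Matches were counted by their letters at any position of the window. The Fgf4 window holds 2 GC boxes and 1 CCAAT box, the Dusp6 window 1 CCAAT box and the Spry2 window none of these letters. The stretch tatatata in the Fgf4 window is not marked, because only the letters TATAAA were searched. The Fgfbp1 window holds 1 CCAAT box and 1 match to TATAAA, which begins at base +4, after the annotated start. Of 32851 promoter windows of all genes, 35.7% held the GC box, 37.4% the CCAAT box and 13.6% the letters TATAAA. The 29 members in the table have 37 windows, of which 23 held the GC box, 15 the CCAAT box and 5 the letters TATAAA. Besides Fgfbp1, these letters began after the start in Fgf13 (+38) and Fgf5 (+35), and before it in Fgfbp3 (-214) and Fgf21 (-28). Another 4 motifs were searched on both strands: an ETS motif (CCGGAAG, 1 of the 37 windows, 8.86% of all windows), a SOX motif (AACAATG, 1 and 3.78%), the octamer (ATGCAAAT, 1 and 1.74%) and an AP-1 motif (TGANTCA, 2 and 7.81%). None of these 4 was in a printed window, and no match overlapped a match of another motif. The GC box, CCAAT box and TATAAA letters were added to the search after the sequences were seen.

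Fgf15, an endocrine ligand, was raised in iPS cells. It measured 5.74, 5.81 and 5.45 in leukemia, 6.54, 7.35 and 5.53 in GFP+ colonies, 5.66, 7.24 and 7.29 in GFP- colonies, and 7.73, 7.66 and 7.63 in iPS cells. The 2 colony arrays with the lowest pluripotency markers lay within the leukemia range and the other 4 between leukemia and iPS arrays. Fgf15 rose 4.03-fold in iPS cells (2.01 ± 0.48, adjusted p = 0.0105). Without those 2 arrays it was also called in GFP+ (1.28 ± 0.21, adjusted p = 0.000944) and GFP- colonies (1.60 ± 0.21, adjusted p = 0.000228), and was higher in iPS cells than in GFP+ colonies (0.73 ± 0.21, adjusted p = 0.033). A second Fgf15 probe set, which the choice of the brightest one set aside, gave 0.09 ± 0.20 in iPS cells against leukemia (adjusted p = 0.808), so the 2 probe sets of this gene disagree.

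Fgf5, a marker of the primed epiblast, varied among the colonies. It measured 4.82, 4.69 and 4.78 in leukemia and 5.35, 5.23 and 4.99 in iPS cells, but 6.93, 6.16 and 5.02 in GFP+ colonies and 4.76, 7.01 and 7.14 in GFP- colonies. Thus 4 colony arrays lay above every iPS array, and the other 2 did not. With all 12 arrays in the fit Fgf5 was not called in any comparison (1.54 ± 0.60 in GFP- colonies against leukemia, adjusted p = 0.0965), and with only the 2 groups it was called in iPS cells against leukemia (0.43 ± 0.10, adjusted p = 0.0085). Without the 2 arrays it was higher in GFP+ and GFP- colonies than in leukemia (1.78 ± 0.20 and 2.32 ± 0.20) and lower in iPS cells than in either (-1.35 ± 0.20, adjusted p = 0.00191, and -1.89 ± 0.20, adjusted p = 0.000693). The arrays left out were the 2 lowest colony arrays for Fgf5, so these differences describe the remaining colony arrays only.

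A further 3 ligand genes were called higher in iPS cells against leukemia, with no call in either colony group. Fgf17, of the Fgf8 subfamily, measured 6.44, 6.50 and 6.49 in leukemia, 6.53, 6.95 and 6.29 in GFP+ colonies, 6.53, 6.90 and 6.40 in GFP- colonies and 7.50, 7.51 and 7.61 in iPS cells. All 3 iPS arrays lay above the other 9. It was higher in iPS cells than in leukemia by 1.06 ± 0.17 (adjusted p = 0.00107), than in GFP+ colonies by 0.95 ± 0.17 (adjusted p = 0.00974) and than in GFP- colonies by 0.93 ± 0.17 (adjusted p = 0.0151). Fgf18, of the same subfamily, measured 6.37, 5.98 and 6.03 in leukemia, 6.97, 6.11 and 6.12 in GFP+ colonies, 6.33, 6.55 and 6.34 in GFP- colonies and 7.18, 7.21 and 7.40 in iPS cells. Here too the iPS arrays were the 3 highest, while GFP+ replicate 1 stood apart from the other colonies. Fgf18 rose in iPS cells against leukemia (1.14 ± 0.22, adjusted p = 0.00303) and GFP+ colonies (0.87 ± 0.22, adjusted p = 0.0328), and was not called against GFP- colonies (0.86 ± 0.22, adjusted p = 0.0533; 0.0478 with only these 2 groups).

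Fgf7, a ligand that mesenchymal cells make for epithelial cells, showed the same order. It measured 5.26, 5.48 and 5.01 in leukemia, 5.30, 5.45 and 5.33 in GFP+ colonies, 5.71, 5.30 and 5.85 in GFP- colonies and 6.93, 6.89 and 6.90 in iPS cells. No iPS array overlapped any other group. The iPS cells were higher by 1.66 ± 0.16 than leukemia (adjusted p = 2.9e-05), by 1.55 ± 0.16 than GFP+ colonies (adjusted p = 0.00092) and by 1.29 ± 0.16 than GFP- colonies (adjusted p = 0.00228). Fibroblast markers moved with it. The 8 of the list averaged 7.23 to 7.37 on iPS arrays, 5.31 to 6.61 on colony arrays and 5.44 to 5.52 on leukemia arrays, and 5 of the 8 rose in iPS cells in each of the 3 comparisons. Of these, Dcn, a matrix proteoglycan gene, measured 10.64 to 10.81 on iPS arrays and at most 7.20 elsewhere, whereas Fap, another fibroblast marker, was no higher on iPS arrays (4.58 to 4.67) than on leukemia arrays (4.69 to 4.93). The part of these markers in the Fgf7 difference was not tested.

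The last called FGF gene was Fgf11, which encodes a factor that stays inside the cell. It measured 5.71, 5.65 and 5.65 in leukemia, 5.71, 5.86 and 5.85 in GFP+ colonies, 5.97, 5.87 and 6.17 in GFP- colonies and 5.94, 5.78 and 5.75 in iPS cells. GFP- colonies were higher than leukemia by 0.33 ± 0.11 (adjusted p = 0.0464), a call lost without GFP- replicate 1 or 3 or any leukemia array (adjusted p up to 0.131) with only these 2 groups in the fit, with array weights and with the replicate number as a block.

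Fgf2, a ligand often added to cultures of primed pluripotent cells, measured 5.52, 5.48 and 5.18 in leukemia, 5.01, 5.27 and 5.50 in GFP+ colonies, 5.21, 5.25 and 5.38 in GFP- colonies and 5.36, 5.54 and 5.25 in iPS cells. The groups overlapped, and the largest difference between 2 groups was 0.14. Fgf8, of the subfamily of Fgf17 and Fgf18, measured 5.31, 5.33 and 5.43 in leukemia, 5.70, 5.34 and 5.45 in GFP+ colonies, 5.85, 5.64 and 5.49 in GFP- colonies and 5.26, 5.56 and 5.28 in iPS cells, with no call. Fgf10, a relative of Fgf7, measured 5.07, 4.41 and 4.80 in leukemia, 5.15, 5.30 and 4.97 in GFP+ colonies, 4.92, 5.08 and 5.10 in GFP- colonies and 5.47, 5.04 and 5.22 in iPS cells. Its difference between iPS cells and leukemia was 0.48 ± 0.17 (adjusted p = 0.0688), and it was called with only these 2 groups in the fit (adjusted p = 0.0468) and without the 2 arrays (adjusted p = 0.048). The second Fgf10 probe set gave 0.15 ± 0.12 (adjusted p = 0.463). With all arrays in the fit, 16 of the 22 FGF genes were called in no comparison. Apart from Fgf5, the other 15 spanned 0.39 to 1.06 over the 12 arrays, and their largest differences between groups ran from 0.06 to 0.48. No detection values were used, so these values do not tell a low level from background.

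**Figure D1:**
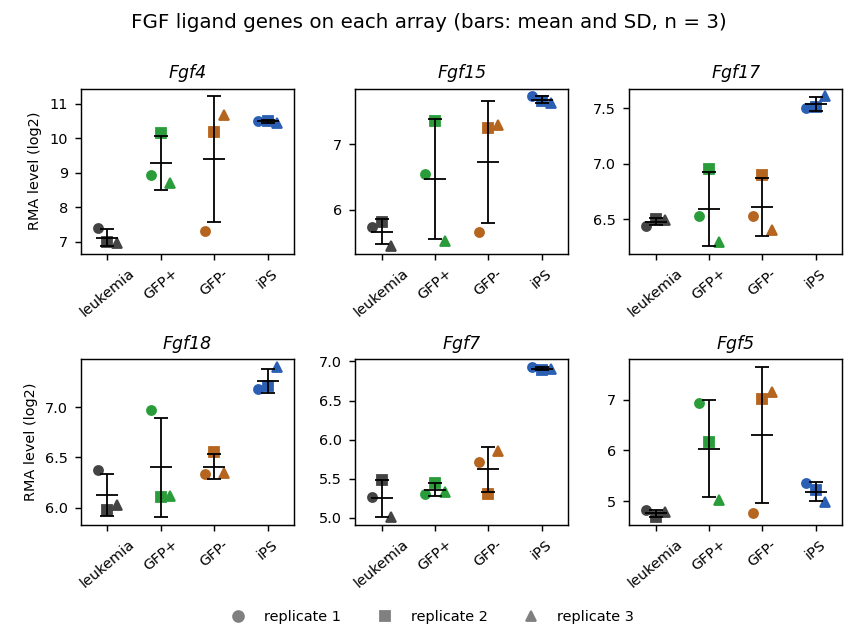
Level in log2 (y axis) of 6 ligand genes on each of the 12 arrays, by group (x axis); symbols mark the replicate number, and bars the mean and SD of 3 arrays. Fgf17, Fgf18 and Fgf7 are highest on the 3 iPS arrays, while Fgf4, Fgf15 and Fgf5 spread widely among colonies.

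Of the 7 carrier and receptor genes 3 rose in GFP+ colonies, 3 in GFP- colonies and 2 in iPS cells against leukemia. Over all genes, 9.60%, 9.02% and 12.4% rose in these comparisons. Fgfbp1 had the largest difference of all members in each. It encodes a secreted protein that releases FGFs from heparan sulfate. Its probe set 17447831 measured 4.13, 4.66 and 4.56 in leukemia, 11.37, 9.94 and 12.28 in GFP+ colonies, 11.29, 9.99 and 10.08 in GFP- colonies, and 10.44, 10.50 and 10.56 in iPS cells. All 9 arrays outside the leukemia lay far above it, and the colonies lay on both sides of the iPS arrays. It rose 107-fold in GFP+ colonies (6.74 ± 0.51, adjusted p = 6.7e-06), 64.0-fold in GFP- colonies (6.00 ± 0.51, adjusted p = 1.61e-05) and 66.0-fold in iPS cells (6.04 ± 0.51, adjusted p = 1.34e-05). In GFP+ colonies the difference was 7.37 without replicate 2. The 3 colony arrays with the most Fgfbp1 were also those with the highest means of the stratified epithelium markers, and the iPS arrays read 10.44 to 10.56 with epithelial means of 7.0 to 7.08. The part of the epithelial markers in these levels was not tested.

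Fgfr1, the receptor gene through which FGF4 acts in pluripotent cells, measured 5.97, 5.53 and 5.95 in leukemia, 9.98, 8.95 and 9.23 in GFP+ colonies, 10.05, 8.83 and 8.56 in GFP- colonies, and 8.63, 8.73 and 8.67 in iPS cells. No array outside the leukemia came near the leukemia range. The rise was 11.9-fold in GFP+ colonies (3.57 ± 0.36, adjusted p = 5.74e-05), 10.0-fold in GFP- colonies (3.33 ± 0.36, adjusted p = 9.49e-05) and 7.25-fold in iPS cells (2.86 ± 0.36, adjusted p = 0.000225). Differences between iPS cells and colonies were -0.71 ± 0.36 and -0.47 ± 0.36 and were not called (adjusted p = 0.232 or above for the 7 receptor and carrier genes against GFP+ colonies).

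Fgfr2, the receptor gene whose epithelial form binds FGF7 and FGF10, was highest in the colonies. It measured 4.67, 4.92 and 4.97 in leukemia, 7.49, 6.69 and 5.13 in GFP+ colonies, 7.32, 8.03 and 7.25 in GFP- colonies, and 5.80, 5.60 and 5.81 in iPS cells. The GFP- arrays lay above all iPS arrays, and in the GFP+ group replicate 3 lay below them. Fgfr2 rose 6.42-fold in GFP- colonies (2.68 ± 0.47, adjusted p = 0.00217) and 3.0-fold in GFP+ colonies (1.58 ± 0.47, adjusted p = 0.0342). The GFP+ call was lost without GFP+ replicate 1 (1.06) or 2 or any leukemia array (adjusted p up to 0.106), and with only these 2 groups in the fit; without GFP+ replicate 3 the difference was 2.24. Between iPS cells and leukemia the difference was 0.88 ± 0.47 with all arrays, not called, and was called with only these 2 groups in the fit (adjusted p = 0.000122) and without the 2 arrays (adjusted p = 0.0136). The difference between iPS cells and GFP- colonies was -1.80 ± 0.47 (adjusted p = 0.061), which was called with only these 2 groups (adjusted p = 0.0387) and without the 2 arrays (-1.91 ± 0.26, adjusted p = 0.00242).

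The remaining 4 genes of this set were not called with all arrays in the fit. Fgfr3, a receptor gene, measured 5.22, 5.27 and 5.34 in leukemia, 5.20, 5.59 and 5.23 in GFP+ colonies, 5.06, 5.16 and 5.65 in GFP- colonies and 5.68, 5.73 and 5.53 in iPS cells. The receptor gene Fgfr4 measured 5.60, 5.45 and 5.35 in leukemia, 5.90, 6.30 and 5.33 in GFP+ colonies, 5.53, 5.40 and 6.04 in GFP- colonies and 5.92, 5.98 and 5.99 in iPS cells. For both, the iPS arrays lay above the leukemia arrays by a mean of 0.37 and 0.50, and the colonies overlapped with either. Both were called in iPS cells against leukemia with only these 2 groups in the fit (adjusted p = 0.00516 and 0.00133). Without the 2 arrays Fgfr4 was also called in iPS cells (adjusted p = 0.0432) and in GFP+ colonies (0.63 ± 0.19, adjusted p = 0.0279). Fgfrl1, which encodes a receptor without the kinase part, measured 7.38, 7.41 and 7.27 in leukemia, 7.32, 7.45 and 6.90 in GFP+ colonies, 7.63, 7.35 and 7.94 in GFP- colonies and 7.31, 7.53 and 7.44 in iPS cells. Fgfbp3, a second carrier gene, ranged from 6.74 to 7.25 over all arrays, with -0.31 ± 0.11 in GFP+ colonies against leukemia (adjusted p = 0.084). Without the 2 arrays it was the 1 member called lower there (-0.32 ± 0.10, adjusted p = 0.0428).

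**Figure D2:**
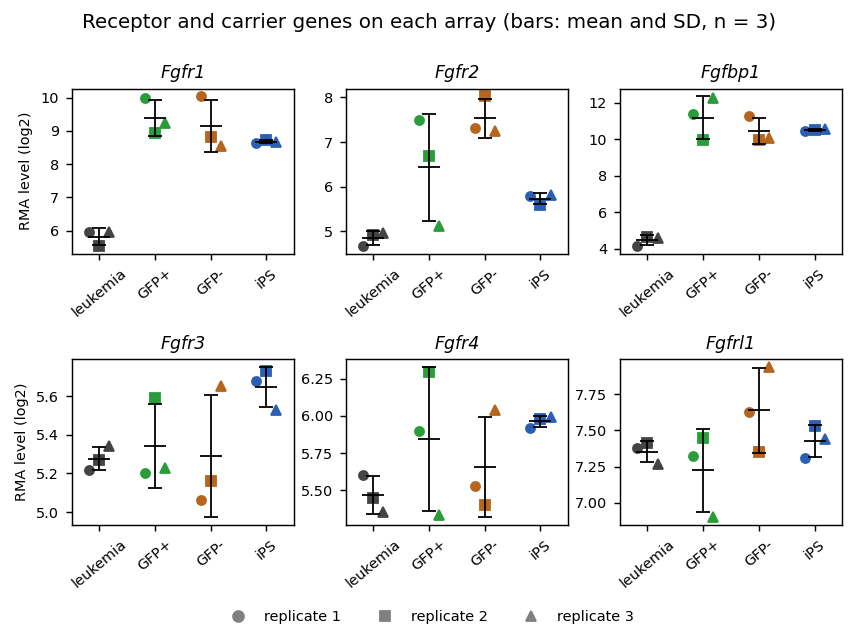
Level in log2 (y axis) of 6 receptor and carrier genes on each of the 12 arrays, by group (x axis); symbols mark the replicate number, and bars the mean and SD of 3 arrays. Fgfr1 and Fgfbp1 are high on all 9 arrays outside leukemia, and Fgfr2 is highest in GFP- colonies at a mean of 7.54.

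The feedback and target genes were called most often of the 3 roles. Of these 10 genes, 6 rose in GFP+ colonies, 6 in GFP- colonies and 5 in iPS cells against leukemia, where 9.60%, 9.02% and 12.4% of all genes rose. Their median differences were 0.82, 0.76 and 0.91, against -0.04, -0.01 and -0.03 over all genes. Spry2 changed most. Its probe set 17309340 measured 5.77, 5.90 and 5.52 in leukemia, 9.02, 9.83 and 7.58 in GFP+ colonies, 7.31, 9.84 and 9.93 in GFP- colonies and 9.95, 9.94 and 9.75 in iPS cells. Every array outside the leukemia lay above it, and GFP+ replicate 3 and GFP- replicate 1 were the lowest of these. Spry2 rose 8.45-fold in GFP+ colonies (3.08 ± 0.68, adjusted p = 0.00819), 9.81-fold in GFP- colonies (3.29 ± 0.68, adjusted p = 0.00576) and 17.8-fold in iPS cells (4.15 ± 0.68, adjusted p = 0.00125). Single arrays moved the colony values: the difference was 3.70 without GFP+ replicate 3 and 4.15 without GFP- replicate 1. Between iPS cells and GFP- colonies Spry2 was not called with all arrays in the fit (means 9.88 and 9.02). With only these 2 groups the difference was 0.86 ± 0.70 (limma, adjusted p = 0.574). With GFP+ replicate 3 and GFP- replicate 1 left out it was -0.001 ± 0.21 (adjusted p = 0.998). GFP- replicate 1 was the lowest colony array for Spry2, so that value describes the remaining arrays only.

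Spry4, another Sprouty gene, measured 6.03, 6.58 and 6.03 in leukemia, 6.67, 7.22 and 7.18 in GFP+ colonies, 6.81, 7.67 and 7.22 in GFP- colonies and 7.93, 8.09 and 8.08 in iPS cells. The colonies lay between the end states with no overlap with either, although GFP+ replicate 1 (6.67) was close to leukemia replicate 2 (6.58). Spry4 rose by 0.81 ± 0.23 (adjusted p = 0.0325), 1.01 ± 0.23 (adjusted p = 0.011) and 1.82 ± 0.23 (adjusted p = 0.000265) in GFP+ colonies, GFP- colonies and iPS cells against leukemia. The call in GFP+ colonies was lost without GFP+ replicate 2 or 3 or leukemia replicate 1 or 3 (adjusted p up to 0.115), and that in GFP- colonies with only these 2 groups in the fit. iPS cells were higher than GFP+ colonies by 1.01 ± 0.23 (adjusted p = 0.0256), a call lost without GFP+ replicate 1 or any iPS array (adjusted p up to 0.0893). Against GFP- colonies the difference of 0.81 ± 0.23 was not called (adjusted p = 0.0881).

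Spry1 and Spred2 were instead highest in colonies. Spry1 measured 6.92, 6.82 and 6.75 in leukemia, 7.49, 7.46 and 8.04 in GFP+ colonies, 7.23, 7.39 and 7.09 in GFP- colonies and 6.88, 6.84 and 6.54 in iPS cells. All 6 colony arrays lay above both end states. Spry1 rose in GFP+ colonies against leukemia (0.84 ± 0.17, adjusted p = 0.00471) and fell in iPS cells against GFP+ colonies (-0.91 ± 0.17, adjusted p = 0.0106; 0.0514 without iPS replicate 3). In GFP- colonies its difference from leukemia was 0.41 ± 0.17 (adjusted p = 0.115; 0.044 without the 2 arrays). Spred2, which encodes a Sprouty-related inhibitor of Ras signalling, measured 8.30, 8.44 and 8.33 in leukemia, 8.71, 8.80 and 8.89 in GFP+ colonies, 8.99, 8.92 and 8.68 in GFP- colonies and 8.25, 8.34 and 8.31 in iPS cells. The colony arrays again lay above both end states, by small amounts. Spred2 rose by 0.44 ± 0.10 (adjusted p = 0.0117) and 0.51 ± 0.10 (adjusted p = 0.00576) in GFP+ and GFP- colonies against leukemia. It was lower in iPS cells than in either colony group, at -0.50 ± 0.10 (adjusted p = 0.0183) and -0.56 ± 0.10 (adjusted p = 0.0164). The iPS calls were lost without any 1 iPS array, and the first also without GFP+ replicate 3 (adjusted p up to 0.0769 and 0.0771), and the second also with only these 2 groups.

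Dusp6 encodes the phosphatase that removes phosphate from ERK. It measured 9.06, 9.30 and 9.34 in leukemia, 10.98, 10.41 and 10.92 in GFP+ colonies, 11.30, 10.73 and 10.30 in GFP- colonies and 10.38, 10.32 and 10.25 in iPS cells. All arrays outside leukemia were higher than it, and 5 of the 6 colony arrays were higher than every iPS array. The rises were 1.54 ± 0.23 in GFP+ colonies (adjusted p = 0.00089), 1.54 ± 0.23 in GFP- colonies (adjusted p = 0.000876) and 1.08 ± 0.23 in iPS cells (adjusted p = 0.00641). The dimmer of its 2 probe sets gave 0.82, 0.88 and 0.70 in the same comparisons, not called (adjusted p = 0.0645, 0.0519 and 0.103).

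The ETS factor genes Etv4 and Etv5 both had their highest mean in iPS cells, but differed in how far the colony means lay below it. Etv4 measured 6.17, 5.88 and 5.88 in leukemia, 7.03, 7.90 and 6.27 in GFP+ colonies, 6.61, 7.98 and 7.27 in GFP- colonies and 8.49, 8.55 and 8.64 in iPS cells. Colonies lay between the end states. Etv4 rose by 2.58 ± 0.39 in iPS cells (adjusted p = 0.000807) and 1.31 ± 0.39 in GFP- colonies (adjusted p = 0.0382), while the difference of 1.09 ± 0.39 in GFP+ colonies was not called (adjusted p = 0.0758) except without the 2 arrays (1.49 ± 0.26, adjusted p = 0.00155). The GFP- call was lost without GFP- replicate 2 or 3 or any leukemia array (adjusted p up to 0.129), and with only these 2 groups. iPS cells exceeded GFP+ colonies by 1.5 ± 0.39 (adjusted p = 0.0388), a call lost without GFP+ replicate 1 or 3 or any iPS array (adjusted p up to 0.12).

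Etv5 measured 8.63, 8.59 and 8.44 in leukemia, 10.00, 10.59 and 10.25 in GFP+ colonies, 8.99, 10.82 and 11.06 in GFP- colonies and 10.40, 10.27 and 10.38 in iPS cells. The colonies lay around the iPS arrays, except GFP- replicate 1, which was only a little above leukemia. Etv5 rose by 1.73 ± 0.43 (adjusted p = 0.0149), 1.74 ± 0.43 (adjusted p = 0.0148) and 1.79 ± 0.43 (adjusted p = 0.0109) in GFP+ colonies, GFP- colonies and iPS cells. The GFP+ call was lost without leukemia replicate 3 (adjusted p = 0.0543), and the GFP- call without leukemia replicate 3 or GFP- replicate 2 (adjusted p up to 0.0581) and with only these 2 groups; without GFP- replicate 1 the latter difference was 2.39. The second Etv5 probe set was also called in all 3 (1.20, 1.24 and 1.26).

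The other 3 feedback genes were not called with all arrays in the fit. Spred1 measured 6.30, 6.35 and 6.63 in leukemia, 6.05, 6.57 and 6.40 in GFP+ colonies, 6.77, 7.08 and 5.91 in GFP- colonies and 7.25, 7.07 and 7.18 in iPS cells. Its difference between iPS cells and leukemia was 0.74 ± 0.26 (adjusted p = 0.0617), which was called with only those 2 groups in the fit (adjusted p = 0.000382). The Spred3 values ran from 5.95 to 7.74 and those of Spry3 from 3.46 to 5.0 over the 12 arrays. For both, too, iPS cells against leukemia was called with only those 2 groups (adjusted p = 0.000329 and 0.0058), by 0.58 and 0.56. Likewise with only the 2 groups, Spred3 was called higher in GFP+ colonies than in leukemia (0.75 ± 0.15, adjusted p = 0.0126) and Spred1 higher in iPS cells than in GFP+ colonies (0.83 ± 0.16, adjusted p = 0.022). Without the 2 arrays Spry3 was called in GFP+ colonies against leukemia (0.93 ± 0.26, adjusted p = 0.019).

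**Figure D3:**
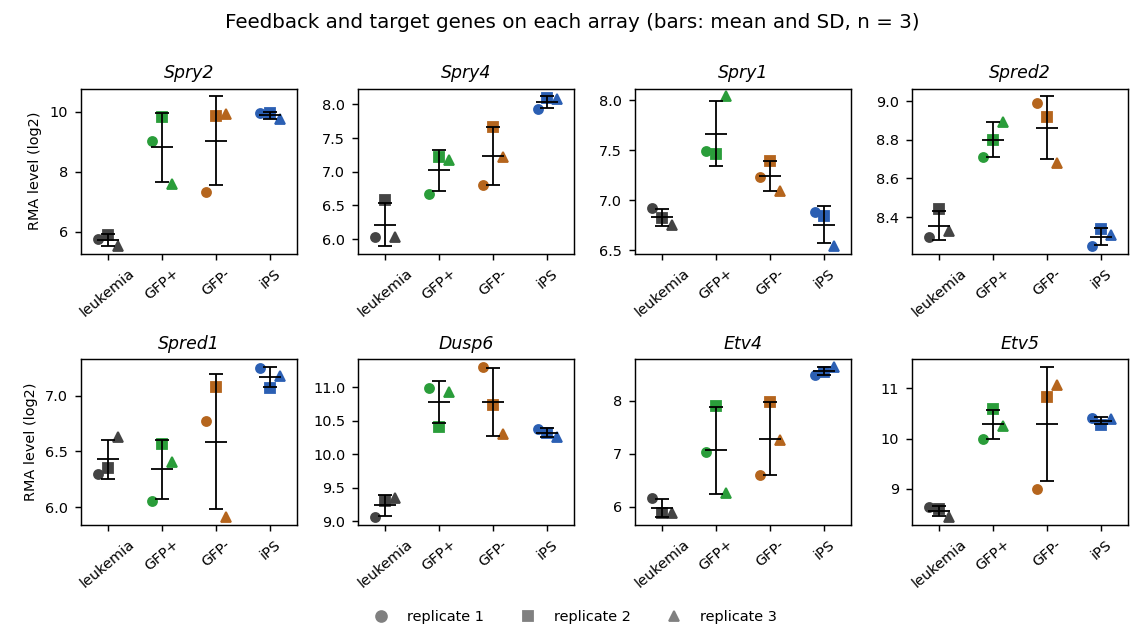
Level in log2 (y axis, a scale of its own per gene) of 8 feedback and target genes on each of the 12 arrays, by group (x axis); symbols mark the replicate number, and bars the mean and SD of 3 arrays. Spry2, Spry4, Spred1, Etv4 and, by a small margin, Etv5 have their highest means in iPS cells, and Spry1, Spred2 and Dusp6 in the colonies.

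No member was called between the 2 colony groups. Between GFP- and GFP+ colonies limma called 0 of 39 genes, 3 had an unadjusted p under 0.05, and 0.00% of all genes were called. Those 3, named after their values were seen, were Fgfr2 (1.10 ± 0.47, adjusted p = 0.76), Fgfrl1 (0.41 ± 0.17, adjusted p = 0.76) and Spry1 (-0.43 ± 0.17, adjusted p = 0.754). The 95% intervals of the difference were wide for the genes that varied among colonies, at -1.47 to 1.72 for Fgf4, -1.29 to 1.72 for Spry2 and -1.87 to 0.39 for Fgfbp1. They were narrower for Dusp6 (-0.51 to 0.52) and Spred2 (-0.17 to 0.30). The arrays of the colony groups did not overlap for 2 members, Fgf11 and Spry1, against 6.53% of all genes. The number of members called stayed at 0 in every alternative run, although 4.73% of all genes were called without the 2 arrays and 5.93% with array weights.

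Several members varied widely over the 6 colony arrays. Of the 16 members called against leukemia, Fgf4 spanned 3.38 over the 6 colony arrays, Fgfr2 2.90, Spry2 2.62, Fgfbp1 2.34 and Etv5 2.07. Spred2 spanned 0.31 and Fgf11 0.46. Fgf4, Spry2, Etv5 and Fgf5 were lowest on GFP- replicate 1, and Fgf15, Etv4, Fgf17 and Fgfr2 on GFP+ replicate 3, the 2 arrays with the lowest pluripotency means. GFP+ replicate 3 also had the highest macrophage mean, 9.31. Over the 16 members, the lowest colony array was GFP+ replicate 3 for 4, GFP- replicate 3 for 4, GFP- replicate 1 for 3, GFP+ replicate 1 for 3, GFP+ replicate 2 for 2 and GFP- replicate 2 for 0. Dusp6, Fgfr1 and Spred2 were highest on GFP- replicate 1 and lowest on GFP- replicate 3, which had the highest and lowest epithelial means of the GFP- arrays (10.65 and 6.43). Across all 6 colony arrays the highest epithelial mean was 10.66, on GFP+ replicate 3. There Dusp6, Fgfr1 and Spred2 measured 10.92, 9.23 and 8.89. The part of these markers in the spread of the FGF genes was not tested.

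**Figure D4:**
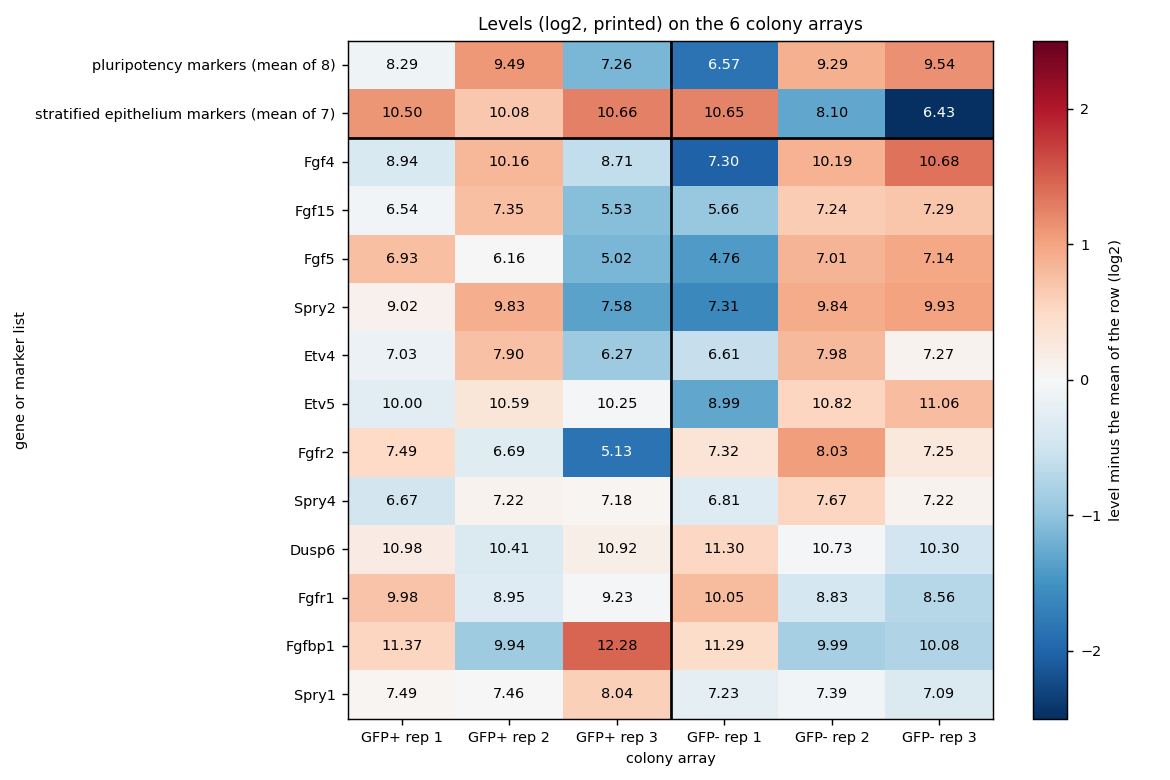
Log2 levels (printed) of 12 FGF genes and of 2 marker lists (y axis) on the 6 colony arrays (x axis); colour is the level minus the mean of the row. Fgf4, Fgf15, Fgf5 and Spry2 are low on GFP+ replicate 3 and GFP- replicate 1, where pluripotency markers average 7.26 and 6.57, while Fgfr1 is highest on GFP- replicate 1 at 10.05.

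Between iPS cells and GFP+ colonies 17.9% of the 39 members were called, and between iPS cells and GFP- colonies 7.69%. Against GFP+ colonies 5 rose (Fgf7, Etv4, Spry4, Fgf17 and Fgf18) and 2 fell (Spry1 and Spred2) of 39, where 10.4% of all genes were called, 6.15% higher and 4.23% lower. Against GFP- colonies 2 rose (Fgf7 and Fgf17) and 1 fell (Spred2), where 4.25% of all genes were called, 2.94% higher and 1.32% lower. The arrays did not overlap for 14 members (38.1% of all genes) and 11 members (27.1%). These counts dropped to 2 or 3 and to 1 without any 1 iPS array. The Fgf18 call was lost without GFP+ replicate 2 or 3 or any iPS array (adjusted p up to 0.116), with only these 2 groups in the fit and without the 2 arrays that stood apart, and the Fgf17 call against GFP- colonies without any 1 iPS array (adjusted p up to 0.0739) and with only these 2 groups. Without the 2 arrays that stood apart, 9 members (20.4% of all genes) and 5 members (10.0%) were called, and with array weights 16 (31.5%) and 12 (19.8%). In the former fit Fgfr2 and Fgf5 were lower in iPS cells than in both colony groups.

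Genes around the pathway also differed from the leukemia. Of 23 measured co-receptor and heparan sulfate genes 10 rose in GFP+ colonies, 9 rose and 1 fell in GFP- colonies, and 12 rose and 1 fell in iPS cells, where 21.9%, 21.0% and 24.3% of all genes were called in either direction. The medians of 1.10, 0.71 and 1.13 compare with -0.04, -0.01 and -0.03 over all genes. Sdc4, a heparan sulfate carrier at the cell surface, rose by 4.56 ± 0.30, 4.23 ± 0.30 and 3.82 ± 0.30 (adjusted p = 2.39e-06, 3.95e-06 and 7.94e-06). Hspg2, which encodes perlecan of the basement membrane, rose by 2.41 ± 0.41, 3.09 ± 0.41 and 3.86 ± 0.41, and Sulf2, which trims heparan sulfate, by 3.21 ± 0.25, 2.78 ± 0.25 and 3.04 ± 0.25 in GFP+ colonies, GFP- colonies and iPS cells. Hspg2 was the only gene of the list called between iPS cells and GFP+ colonies (1.45 ± 0.41, adjusted p = 0.0475).

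Of 14 adaptor and Ras-MAPK genes 4 rose and 2 fell in each colony group, and 3 rose and 3 fell in iPS cells, against the same shares of all genes. Gab1, a docking protein gene, rose by 4.19 ± 0.39, 4.39 ± 0.39 and 4.65 ± 0.39 in GFP+ colonies, GFP- colonies and iPS cells. Cbl, which encodes a ubiquitin ligase that acts on receptors, fell by 1.47, 1.39 and 1.38 on the log2 scale in the same order. Sos2, an activator of Ras, was lower in iPS cells than in leukemia (-1.85 ± 0.36, adjusted p = 0.00333) and than in GFP+ colonies (-1.67 ± 0.36, adjusted p = 0.0191). Of 9 other ERK-responsive genes 3 rose in every comparison with leukemia, and 1, Fos, fell in GFP- colonies (-1.72) and iPS cells (-2.40), against called shares of 21.9%, 21.0% and 24.3% of all genes. Etv1, the third relative of Etv4 and Etv5, rose by 3.89 ± 0.47, 3.67 ± 0.47 and 3.82 ± 0.47, and the cyclin gene Ccnd1 by 3.66 ± 0.45, 3.15 ± 0.45 and 3.91 ± 0.45. The immediate early genes Egr1 (-1.94 ± 0.49, adjusted p = 0.0337) and Fos (-1.77 ± 0.43, adjusted p = 0.0298) were lower in iPS cells than in GFP+ colonies.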

How the data were processed

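Total RNA of 12 samples was extracted with Trizol, labelled with biotin and hybridised to Affymetrix arrays, per the labels' protocols. The authors deposited log2 values made with RMA, per the submitters' processing notes; its software and filters were not given in the sources used here. Where RMA equalises the array distributions, a shift shared by most genes is lost. No depth or detection values were used, so the number of arrays limits the precision. Of 41345 probe sets, 23521 had 1 gene symbol, 1814 several and 16010 none here, and only the first kind was used. The probe set with the highest mean was kept for each gene, leaving 22180 genes and all 39 members, whose Entrez identifiers all matched RefSeq with the same symbol. 4 members had more than 1 probe set.

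limma 3.58.1 (R 4.3.3) fitted 4 group means to the 12 arrays and gave 6 comparisons, each adjusted by Benjamini-Hochberg over all genes. The steps were tested on simulated data. Members, lists and alternatives were chosen with earlier results of these data known. Named were, per comparison and role, the 3 called members with the largest difference, and a fixed set of 21 members; of each pathway list, the 2 largest called genes. The alternatives were cyclic loess, dim genes left out, the mean of probe sets, array weights, only the 2 groups compared, a replicate block, another variance prior, and arrays left out.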

Additional observations from a re-analysis of the deposited data

How the results depend on the processing

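Of the 42 calls of members, 28 were kept without any 1 array and 14 were lost without at least 1. None changed direction under any alternative. All 42 were kept after cyclic loess, with the mean of probe sets and with another variance prior, and all 36 still tested were kept without the dim genes; 41 were kept with array weights and without the 2 arrays that stood apart, 40 with the replicate block and 33 with only the 2 groups in the fit. The counts of called members moved by over 1.5 times as follows. With array weights they were 19 for GFP+ colonies against leukemia (9 with equal weights), 17 for GFP- colonies (11), 21 for iPS cells (12), 16 for iPS cells against GFP+ colonies (7) and 12 against GFP- colonies (3). With only the 2 groups they were 6 for GFP- colonies and 21 for iPS cells against leukemia. With GFP+ replicate 3 and GFP- replicate 1 left out they were 16 for GFP+ colonies against leukemia and 5 for iPS cells against GFP- colonies. Leaving out 1 array gave 6 to 10, 7 to 12 and 12 to 13 for GFP+ colonies, GFP- colonies and iPS cells against leukemia, 2 to 8 and 1 to 4 for iPS cells against GFP+ and GFP- colonies, and 0 between the colony groups.

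With the replicate number as a block the counts were 10, 9 and 12 against leukemia, where 20.8%, 19.8% and 23.0% of all genes were called. They were 0 between colony groups (0.00% of all genes), and 7 (8.63%) and 4 (3.33%) for iPS cells against GFP+ and GFP- colonies. The numbers did not pair the arrays. Of 18 same-numbered pairs 2 deviated together at a correlation over 0.1 (range -0.377 to 0.322), and 4 of 12 arrays correlated best with their own number. Over all genes, the share of calls that were higher moved with cyclic loess from 43.9% to 57.1% and from 43.0% to 53.4% for GFP+ and GFP- colonies against leukemia, and from 59.2% to 48.3% for iPS cells against GFP+ colonies. The cause of these shifts was not tested.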
